A study of Homo sapiens with 4 samples.

Results

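The receptors of the interleukin-6 cytokine family and the signalling genes directly behind them were examined in NCI-H1703 cells, a line derived from a human lung tumour. The 10 genes were taken by symbol from a count table of 48162 genes. They are the receptor genes IL6ST, LIFR, OSMR, IL6R and IL11RA, the kinase genes JAK1 and JAK2, the transcription factor gene STAT3 and the feedback inhibitor genes SOCS3 and CISH. Cells stably overexpressing the long noncoding RNA EGFR-AS1 gave 2 libraries, and cells with the pCDNA vector gave another 2. The titles name them Set A and Set B in each group, here library A and library B. Both kinds of cells were kept in RPMI with fetal bovine serum under hygromycin, and no cytokine treatment is named in the labels. The labels do not say whether either line is a clone or a pool, and they name no separate cultures behind A and B. P-values therefore measure only the spread between these libraries, which may be technical.

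Cytokines of this family bind a specific receptor chain and then the shared chain gp130, which IL6ST encodes. The receptor-bound Janus kinases phosphorylate each other, the receptor tails and STAT3, which then enters the nucleus and activates genes such as SOCS3. SOCS3 protein binds gp130 and the kinases and ends the signal, so its transcript is commonly read as a trace of STAT3 activity, although other pathways also induce it. In lung cancer cells the route is known for autocrine signalling and for resistance to inhibitors of receptor tyrosine kinases.

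SOCS3 was the member that differed between the groups: its level was 1.43-fold higher with EGFR-AS1 overexpression, and none of the other 9 members passed the test. That 1 of 10, or 10.0%, is near the 14.5% of all 16106 genes tested that were called at an edgeR adjusted p under 0.05 (7.80% higher and 6.67% lower). The shared receptor gene IL6ST and its partner LIFR had overlapping values in the groups. Among the genes around the members, the ligand gene LIF fell to 0.490 of its vector level and the family receptor gene IL31RA rose 4.90-fold.

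STAT proteins bind palindromic sites of the form TTCNNNGAA, and the promoter sequences of the members were searched for these letters. RefSeq start sites on GRCh38.p14 gave 19 windows of 300 bases for the members, from 250 bases before a start to 50 after it, and all 10 members matched. The motif reads the same on both strands. It occurred in 3 of the 19 windows, and in 2689 of 35116 windows of all genes (7.66%). CISH, whose product is a feedback inhibitor known as a STAT5 target, had 4 matches. Only 7 of the 35116 windows had 4 or more. LIFR had 1 match at each of 2 of its start sites, and the SOCS3 windows had none. A further LIFR window, at chr5:38556597-38556896, had no match and lies downstream of the window labelled inner below. The CISH and LIFR windows are shown because they hold the matches, and the window of the upstream SOCS3 start because SOCS3 is the member that changed. Capitals mark the motif, and all 4 windows lie on the minus strand, at chr3:50611725-50612024 for CISH, chr5:38557418-38557717 and chr5:38595356-38595655 for LIFR and chr17:78360876-78361175 for SOCS3.
CISH: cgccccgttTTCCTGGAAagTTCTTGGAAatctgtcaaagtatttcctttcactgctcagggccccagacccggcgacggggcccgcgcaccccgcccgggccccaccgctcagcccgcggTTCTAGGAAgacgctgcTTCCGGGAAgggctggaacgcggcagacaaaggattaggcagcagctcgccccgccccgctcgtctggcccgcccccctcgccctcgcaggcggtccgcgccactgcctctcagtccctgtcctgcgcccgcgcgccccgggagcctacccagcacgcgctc
LIFR, inner start: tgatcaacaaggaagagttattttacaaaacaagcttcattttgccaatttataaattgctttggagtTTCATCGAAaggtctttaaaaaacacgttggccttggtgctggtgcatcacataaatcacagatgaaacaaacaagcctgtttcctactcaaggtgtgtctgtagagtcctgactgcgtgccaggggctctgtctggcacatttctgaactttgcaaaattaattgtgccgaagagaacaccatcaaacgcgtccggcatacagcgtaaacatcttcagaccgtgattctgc
LIFR, upstream start: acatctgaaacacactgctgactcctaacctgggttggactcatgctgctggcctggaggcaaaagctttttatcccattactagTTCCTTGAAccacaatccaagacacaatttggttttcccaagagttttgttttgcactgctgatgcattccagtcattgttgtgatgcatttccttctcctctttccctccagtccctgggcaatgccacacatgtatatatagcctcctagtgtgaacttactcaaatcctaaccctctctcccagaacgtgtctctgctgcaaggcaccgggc
SOCS3: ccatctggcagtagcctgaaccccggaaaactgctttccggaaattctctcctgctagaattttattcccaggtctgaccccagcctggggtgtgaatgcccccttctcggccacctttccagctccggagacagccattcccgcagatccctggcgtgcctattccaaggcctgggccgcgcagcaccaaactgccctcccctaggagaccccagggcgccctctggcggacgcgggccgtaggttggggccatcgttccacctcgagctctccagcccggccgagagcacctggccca
In the CISH window the matches were TTCCTGGAA, TTCTTGGAA, TTCTAGGAA and TTCCGGGAA, beginning 241, 230, 129 and 112 bases before the start. In LIFR they were TTCATCGAA, 182 bases before the inner start, and TTCCTTGAA, 165 bases before the upstream start. A match of letters is not a site of binding, and its absence from a window says nothing of STAT3 elsewhere at the gene. The SOCS3 windows, at chr17:78359618-78359917 and chr17:78360876-78361175, left the bases between them unsearched.

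The libraries held 32680467 and 33750041 counted reads with overexpression and 41518275 and 32601449 with vector. EGFR-AS1 was at 20.2 and 17.4 CPM (counts scaled to library size with TMM factors) with overexpression and at 1.39 and 1.17 CPM with vector (edgeR adjusted p = 5.62e-09), and exons of EGFR on the other strand cover 6.63% of its exonic bases. Of the 5 epithelial markers, EPCAM, CDH1 and KRT19 had 0 to 9 reads in every library, while KRT8 and KRT18 were lower with overexpression. The summed level of the epithelial list was 30.7 to 37.1 CPM with overexpression and 73.6 to 88.7 CPM with vector. Of the fibroblast list, COL3A1 was higher by edgeR (adjusted p = 0.0256), while DESeq2 called 0 genes of the list and limma-voom 2 higher. COL1A1 had 10.5 and 11.0 CPM with overexpression and 8.45 and 4.89 CPM with vector (edgeR adjusted p = 0.0595). DCN had 39 reads in overexpression A and 0 in the other 3 libraries. COL1A2 and LUM likewise had 37 and 8 reads in overexpression A and 0 or 1 in each other library. For DCN, COL1A2 and LUM the difference thus lay in a single library. The 5 genes of the fibroblast list summed to 11.9 to 14.4 CPM with overexpression and 5.43 to 8.71 CPM with vector. The leukocyte markers PTPRC and CD3E had 0 to 3 reads per library, CD14 had 2 to 18 and ITGAM 216 to 330. The 4 endothelial markers summed to 0.208 to 0.332 CPM with overexpression and 0.0708 to 0.159 CPM with vector. The part of these marker differences in the results was not tested. In bulk RNA, fewer cells carrying a transcript and less of it per cell cannot be told apart.

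**Figure D1:**
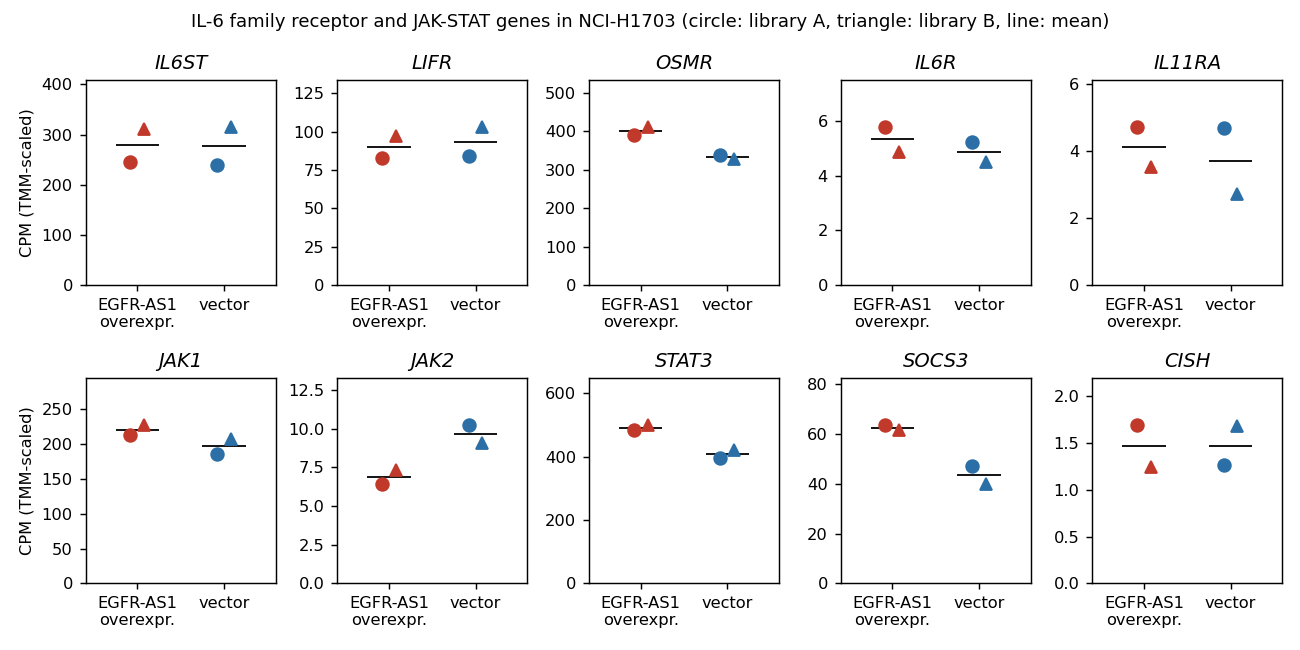
Level of each of the 10 members in CPM (counts scaled to library size with TMM factors, axes from 0) in the 2 overexpression libraries (red) and the 2 vector libraries (blue), with circles for library A, triangles for library B and a line at the mean. SOCS3 sits at 61.5 to 63.4 CPM with overexpression and 39.9 to 47.2 CPM with vector, while IL6ST and LIFR spread alike in both groups.

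Of the receptor genes, none passed the test. IL6ST, the gene of the signal-transducing chain gp130, had 246 and 312 CPM in overexpression A and B, against 239 and 315 CPM in vector A and B. The groups overlapped, and in each of them library B was the higher. The log2 difference was 0.02 (95% interval -0.30 to 0.33, edgeR adjusted p = 0.965). For these libraries the interval runs from 0.813-fold to 1.26-fold. LIFR, the chain that joins gp130 for LIF, had 83.1 and 97.1 CPM with overexpression and 84.1 and 103 CPM with vector. Its values overlapped in the same way (log2 difference -0.05, interval -0.33 to 0.23, edgeR adjusted p = 0.848). Antisense genes cover 8.58% of the exonic bases of IL6ST and 5.30% of those of LIFR, and how the counting treated strand is not known here.

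OSMR, the chain that pairs with gp130 for oncostatin M and with IL31RA for interleukin-31, had 390 and 411 CPM with overexpression and 339 and 329 CPM with vector. Both overexpression libraries were above both vector libraries. The difference was 0.26 on the log2 scale (interval 0.02 to 0.51) and did not pass over all genes (unadjusted p = 0.0369, edgeR adjusted p = 0.153). OSMR lies next to LIFR on chromosome 5, with 0 coding genes of the table between them, and the median log2 difference of the 50 tested coding genes nearest to each was 0.04.

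The alpha chains, which give a cell its response to a single cytokine, were far lower in reads. IL6R, the interleukin-6 receptor gene, had 191 and 164 reads with overexpression and 221 and 142 with vector, or 5.77 and 4.87 CPM against 5.21 and 4.51 CPM. IL11RA, its counterpart for interleukin-11, had 4.71 and 3.53 CPM with overexpression and 4.69 and 2.73 CPM with vector. The groups overlapped for both genes, with log2 differences of 0.13 (interval -0.34 to 0.59, edgeR adjusted p = 0.763) and 0.14 (interval -0.44 to 0.72, edgeR adjusted p = 0.801). These intervals reach to 1.5-fold and 1.65-fold, so rises of up to that size were within the error. IL11RA shares 7.82% and 9.60% of its exonic bases with the same-strand genes GALT and AL162231.3, so its count is less certain.

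The kinases did not pass either. JAK1, the main kinase of gp130 signalling, had 214 and 227 CPM with overexpression and 186 and 208 CPM with vector (log2 difference 0.16, interval -0.09 to 0.42, edgeR adjusted p = 0.418). JAK2, which also associates with gp130 and serves several hormone receptors, had 6.43 and 7.33 CPM with overexpression and 10.2 and 9.08 CPM with vector. JAK2 was the member with the lowest ratio, and both overexpression libraries were under both vector libraries. Its log2 difference was -0.49 (SE 0.19, interval -0.89 to -0.08, unadjusted p = 0.0211, edgeR adjusted p = 0.106). Without vector B it passed (log2 difference -0.57, edgeR adjusted p = 0.0244), and without overexpression A the adjusted p was 0.511.

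STAT3, the transcription factor gene of the pathway, had 485 and 499 CPM with overexpression and 396 and 422 CPM with vector. The groups did not overlap, and the log2 difference of 0.27 (SE 0.12, interval 0.02 to 0.51) was close in size to that of OSMR. It did not pass over all genes (unadjusted p = 0.0344, edgeR adjusted p = 0.145).

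SOCS3, the feedback inhibitor gene, had 2099 and 2071 reads with overexpression and 1999 and 1256 with vector, in libraries of unequal depth. Scaled, this was 63.4 and 61.5 CPM with overexpression and 47.2 and 39.9 CPM with vector. The groups did not overlap, and the vector libraries lay further apart (43.5 ± 5.17 CPM) than the overexpression libraries (62.4 ± 1.34 CPM, SD, n = 2 each). The log2 fold change was 0.52 (SE 0.13, interval 0.25 to 0.79), or 1.43-fold (1.19 to 1.73), with an edgeR adjusted p of 0.0115. Library A over library A gave 0.43 and library B over library B gave 0.63. Without overexpression A the adjusted p was 0.102 (log2 fold change 0.49) and without overexpression B it was 0.0601 (0.54). The call therefore needed both overexpression libraries, while the direction was the same in all 11 alternatives. The markers that moved with the groups are given above, and their part in the SOCS3 difference was not tested.

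CISH, the other inhibitor gene, had few reads. It had 56 and 42 reads with overexpression and 54 and 53 with vector, or 1.69 and 1.25 CPM against 1.27 and 1.68 CPM. The library letters pointed in opposite directions, 0.41 for A and -0.43 for B. Its log2 difference was 0.00 with an interval of -0.67 to 0.67, so a change of 1.59-fold in either direction was within the error. The 4 motif matches printed above thus lie at a gene with about 50 reads per library.

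**Figure D2:**
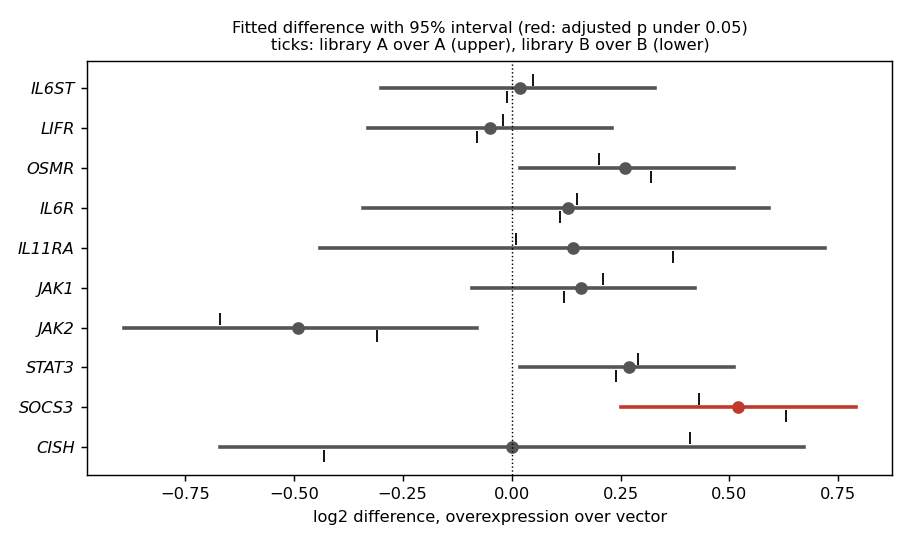
Log2 difference of each member, overexpression over vector, as a point with its 95% interval from the edgeR fit (red, adjusted p under 0.05; grey, not called), with ticks for the ratio of library A over A (upper) and B over B (lower). SOCS3 at 0.52 is the called member, the intervals of OSMR, JAK2 and STAT3 lie on 1 side of 0 without passing the adjustment, and the ticks of CISH stand on opposite sides.

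Among the 10 members, all of which were tested, 1 was called higher and 0 lower, against 14.5% of all genes. At an unadjusted p under 0.05, 3 were higher and 1 was lower, and DESeq2 and limma-voom each called 1 higher and 0 lower. The share of all genes under that unadjusted p is not given here. Unadjusted counts of the members and of the lists below therefore have no background to be read against. The groups did not overlap for 5 of the 10 members (OSMR, JAK1, JAK2, STAT3 and SOCS3), where the share over all genes was 55.5%. Both shares of the members are near those of all genes. The median log2 difference was 0.13 for the members and 0.00 for all genes tested. The count over all genes was 2332, and it was 1299 without overexpression A, 1271 without overexpression B and 3522 without vector A.

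Per kilobase of exon, the members fell into an upper and a lower tier in both groups. OSMR and STAT3 stood highest, at 55.8 ± 1.97 and 55.8 ± 1.06 CPM per kilobase with overexpression and 46.5 ± 0.971 and 46.4 ± 2.06 with vector. JAK1 (34.9 ± 1.42 with overexpression, 31.2 ± 2.52 with vector) and IL6ST (30.1 ± 5.03 and 29.8 ± 5.79) followed. Neither OSMR and STAT3 nor JAK1 and IL6ST differed from each other beyond their spread. SOCS3 came next, at 22.8 ± 0.491 with overexpression and 15.9 ± 1.89 with vector, and LIFR was at 7.60 ± 0.830 and 7.88 ± 1.12.

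The lower tier held JAK2 at 1.12 ± 0.103 CPM per kilobase with overexpression and 1.56 ± 0.131 with vector, and CISH at 0.287 ± 0.0614 and 0.289 ± 0.0564. Between them, IL11RA (0.965 ± 0.195 and 0.869 ± 0.325) and IL6R (0.824 ± 0.0985 and 0.753 ± 0.0776) were not separated from each other by their spread. JAK2 and IL11RA overlapped with overexpression. The alpha chains for interleukin-6 and interleukin-11 were far under OSMR and LIFR on this scale. The 5 receptor genes made up 44.2% and 46.4% of the summed level per kilobase of the 10 members with overexpression, against 46.7% and 48.0% with vector. The order within both tiers depends on the length used. Per kilobase of coding sequence STAT3 (212 with overexpression, 176 with vector) stood above OSMR (127 and 106). In the lower tier, JAK2 (2.03 and 2.84) then stood under IL11RA (3.25 and 2.93) and IL6R (3.41 and 3.11).

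**Figure D3:**
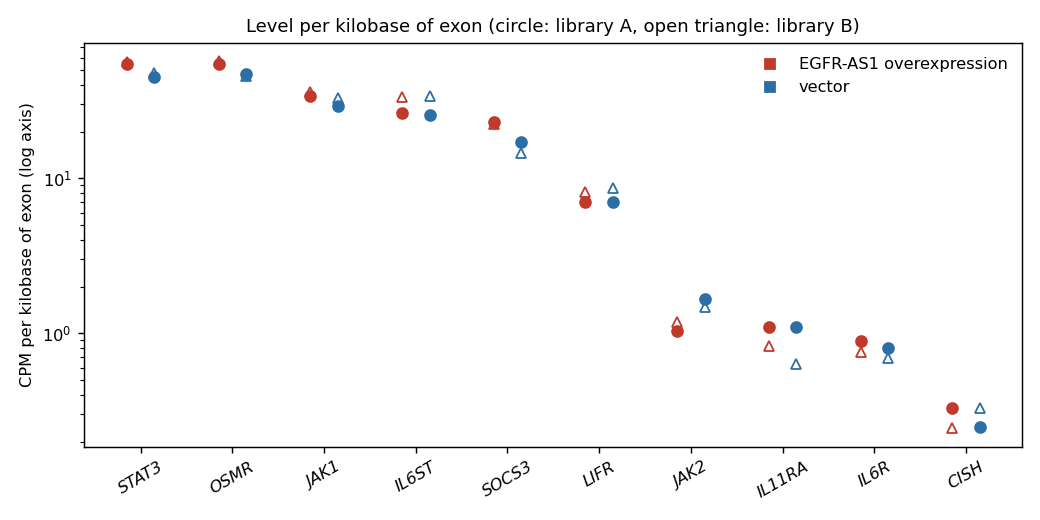
CPM per kilobase of exon (log axis) for each member, ordered by the mean of the overexpression libraries, with overexpression in red and vector in blue, filled circles for library A and open triangles for library B. OSMR and STAT3 lie between 44.9 and 57.2, and JAK2, IL11RA, IL6R and CISH lie at 1.66 or lower in all 4 libraries.

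The ligand genes moved in both directions. Of 11 ligand genes and ligand subunits, 7 were tested, 1 was higher, 1 was lower and 5 did not pass. LIF, leukemia inhibitory factor, the ligand of LIFR and gp130, had 129 and 89.9 CPM with overexpression and 255 and 192 CPM with vector. Both overexpression libraries were well under both vector libraries, and LIF fell by 1.03 on the log2 scale (SE 0.17, interval -1.38 to -0.68, edgeR adjusted p = 4.95e-04). LIF passed in all 11 alternatives. CTF1, the cardiotrophin gene, whose product also uses LIFR, rose 2.45-fold (interval 1.43 to 4.21, edgeR adjusted p = 0.0260). It had few reads, 58 and 51 with overexpression and 35 and 15 with vector. By DESeq2 its adjusted p was 0.0936, and it was 0.0692 without vector B, 0.200 without overexpression A and 0.0924 without overexpression B.

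The ligands of OSMR, IL6R and IL31RA were scarce. IL6 had 9 and 6 reads with overexpression and 10 and 9 with vector, and was too low to be tested. OSM, the oncostatin M gene next to LIF on chromosome 22, had 0 reads with overexpression and 1 read in vector A. IL31 and IL27 had 0 reads in every library, which at 3 reads allows up to 0.0906 and 0.0891 CPM in the overexpression libraries and 0.0708 and 0.0952 CPM in the vector libraries, for counting error only. CLCF1, a ligand of the CNTF receptor complex, was the next most abundant after LIF, with 9.12 and 7.22 CPM with overexpression and 9.18 and 7.58 CPM with vector.

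Of the 3 other receptor genes of the family, 1 rose and 2 did not pass. IL31RA, the interleukin-31 receptor that partners OSMR, had 259 and 218 reads with overexpression and 45 and 60 with vector, or 7.82 and 6.47 CPM against 1.06 and 1.90 CPM. It rose 4.90-fold (interval 3.24 to 7.41, edgeR adjusted p = 4.08e-05) and passed in all 11 alternatives. IL31RA lies beside IL6ST on chromosome 5, with 0 coding genes of the table between them, and IL6ST was at 1.01-fold. CNTFR (log2 difference -1.36, edgeR adjusted p = 0.0630) had 9 reads in each overexpression library and 27 and 24 with vector. IL27RA was at 101 and 98.8 CPM with overexpression and 107 and 145 CPM with vector (edgeR adjusted p = 0.128). The log2 difference of IL27RA was -0.34 with all libraries, -0.54 without vector A and -0.10 without vector B.

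Of the other Janus kinase and STAT genes, 5 of 8 were tested and 0 passed in either direction by edgeR, DESeq2 or limma-voom. At an unadjusted edgeR p under 0.05, 1 was higher and 0 lower, without the share of all genes to read this against. The tested genes with the smallest p were STAT2, STAT6 and STAT5B. STAT2, which acts in interferon signalling, had 29.4 and 33.8 CPM with overexpression and 27.8 and 14.9 CPM with vector, where vector B stood apart. Its log2 difference of 0.56 (unadjusted p = 0.0190, edgeR adjusted p = 0.0979) was 1.07 without vector A (adjusted p = 3.31e-08) and 0.18 without vector B (adjusted p = 0.508). STAT2 also passed without overexpression A (0.0350) and with no filter on low counts (0.00944). STAT6 had a log2 difference of 0.30 with all libraries (edgeR adjusted p = 0.190), 0.48 without vector A and 0.13 without vector B. STAT5B had an adjusted p of 0.521. JAK3, the kinase of lymphocyte receptors, had 0 to 3 reads per library.

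Of 14 other inhibitor genes, 13 were in the table under the identifier the reference gives and were tested, 0 were higher by edgeR and 3 were lower. At an unadjusted edgeR p under 0.05, 1 was higher and 5 were lower, without the share of all genes to read this against. With adjustment, DESeq2 and limma-voom gave the same counts as edgeR. SOCS4 fell by 0.84 on the log2 scale (interval -1.11 to -0.56, edgeR adjusted p = 3.31e-04), to 33.0 and 36.8 CPM with overexpression, against 65.7 and 59.2 CPM with vector. On chromosome 14, 48 of the 50 tested coding genes nearest to SOCS4 were lower, with a median log2 difference of -0.88. PTPN2, a phosphatase of Janus kinases and STAT proteins, was at 30.6 and 32.1 CPM with overexpression and 41.1 and 46.0 CPM with vector (log2 fold change -0.47, edgeR adjusted p = 0.0244). PIAS2, a SUMO ligase of the family that inhibits STAT proteins, was at 23.9 and 24.4 CPM with overexpression and 32.8 and 32.1 CPM with vector (-0.43, edgeR adjusted p = 0.0477). For both genes the groups did not overlap. Both lie on chromosome 18, with medians of -0.13 and -0.19 over their 50 nearest tested coding genes. The adjusted p of PTPN2 was 0.0646 without vector B, 0.201 without overexpression A and 0.128 without overexpression B. That of PIAS2 was 0.292 and 0.277 without overexpression A and B, and 0.0694 with library totals alone. For the 10 members the median over nearest genes (39 genes for JAK2, 50 for the others) ran from -0.08 at SOCS3 to 0.10 at JAK1. Of the 50 genes nearest to SOCS3, 31 were lower, and the count was also 31 of 50 for PTPN2. The part of the neighbouring genes in these differences was not tested.

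Of 34 other cytokine and hormone receptor genes that signal through Janus kinases, 18 were tested. By edgeR, DESeq2 and limma-voom alike, 3 rose and 0 fell. At an unadjusted edgeR p under 0.05, 6 were higher and 0 lower, without the share of all genes to read this against. IL7R, the interleukin-7 receptor, had 225 and 232 CPM with overexpression and 8.0 and 13.5 CPM with vector, a 21.5-fold rise (interval 16.1 to 28.6, edgeR adjusted p = 5.38e-10). With overexpression the CPM of IL7R were between those of LIFR and IL6ST. CPM are not scaled to gene length, so this is not a rank of transcript levels. Exons of IL7R span 6060 bases, against 11864 for LIFR and 9292 for IL6ST. IL2RG, the partner of IL7R for interleukin-7, had 1 to 4 reads per library, and CRLF2, its partner for TSLP, had 0 or 1. PRLR, the prolactin receptor, which uses JAK2, had 8.79 and 10.3 CPM with overexpression and 0.566 and 0.762 CPM with vector (14.5-fold, interval 9.76 to 21.5, edgeR adjusted p = 6.93e-08). IL7R and PRLR lie on chromosome 5 with 1 coding gene between them, SPEF2, and the 50 tested coding genes nearest to each had medians of -0.02 and 0.04. IFNAR2, a chain of the type I interferon receptor, rose 1.41-fold to 41.3 and 39.8 CPM with overexpression, against 29.4 and 28 CPM with vector (edgeR adjusted p = 0.0184). Its adjusted p was 0.184 without overexpression A and 0.115 without overexpression B.

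Of 34 genes known as targets of STAT3 in other cells, 22 were tested, 0 were higher by edgeR, 3 were lower and 19 did not pass. At an unadjusted edgeR p under 0.05, 2 were higher and 4 lower, without the share of all genes to read this against. DESeq2 called 0 higher and 3 lower, and limma-voom 1 higher (BCL6) and 3 lower. Their median log2 difference was -0.05, beside 0.00 for all genes tested. HIF1A, a hypoxia transcription factor gene, fell by 0.84 (edgeR adjusted p = 4.61e-04), to 59.4 and 71.1 CPM with overexpression, against 105 and 129 CPM with vector. It lies on chromosome 14, and 49 of its 50 nearest tested coding genes were lower, with a median of -0.87. VEGFA, an angiogenic factor gene, was at 99.5 and 94.2 CPM with overexpression and 147 and 121 CPM with vector (log2 fold change -0.47, edgeR adjusted p = 0.0187). Its adjusted p was 0.0664 without vector A, 0.101 without overexpression A and 0.205 without overexpression B. SAA1, an acute phase gene whose reads can be shared with its near copy SAA2, was at 6.92 and 3.62 CPM with overexpression and 8.73 and 11.5 CPM with vector (-0.94, edgeR adjusted p = 0.0229). Without overexpression B the adjusted p of SAA1 was 0.335, and with library totals alone it was 0.0520.

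**Figure D4:**
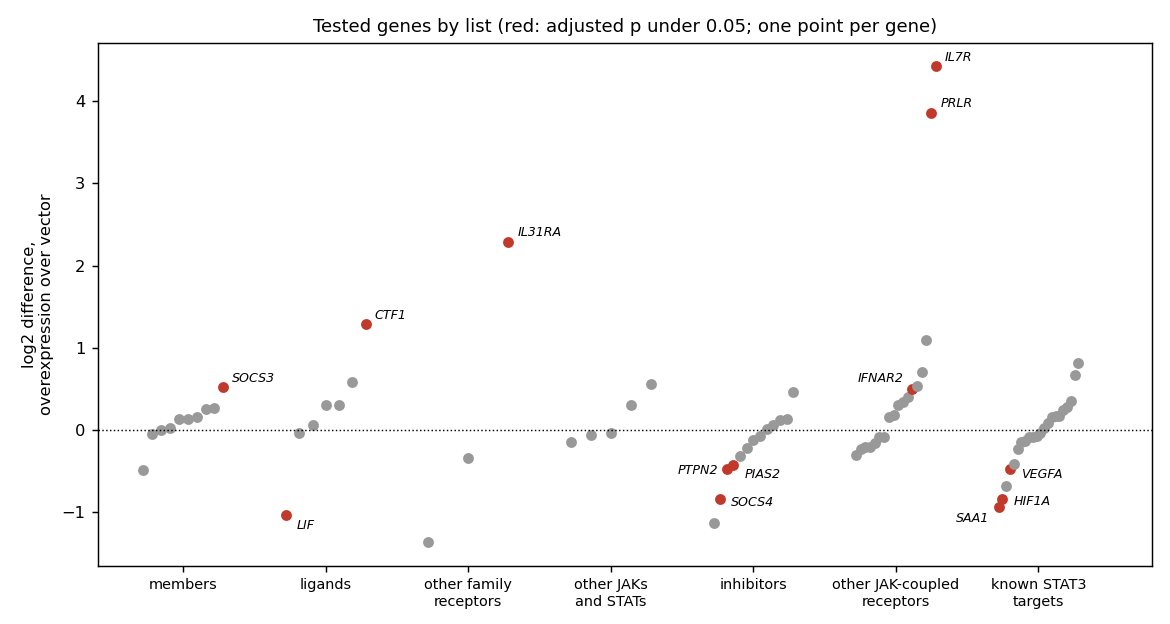
Log2 difference, overexpression over vector, of every tested member and of every tested gene of the 6 other lists, sorted within each list, with called genes (edgeR adjusted p under 0.05) in red and named. The called genes of the lists run from LIF at -1.03 to IL7R at 4.42, and SOCS3 at 0.52 is the called member.

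Counting each gene once, the 6 lists beside the members held 104 genes, of which 68 were tested, 5 were higher and 7 were lower. By list, the share of tested genes called was 28.6% for ligands, 33.3% for other family receptors and 0.00% for other Janus kinases and STATs. It was 23.1% for inhibitors, 16.7% for other receptors coupled to Janus kinases and 13.6% for STAT3 targets. Over all genes it was 14.5%. The lists were chosen with earlier results of these data known, so these shares are a description only. The called genes with a log2 difference past 1 in size were the ligand genes LIF and CTF1 and the receptor genes IL31RA, IL7R and PRLR.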

How the data were processed

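RNA of NCI-H1703 cells was sequenced in 2 EGFR-AS1 overexpression and 2 vector libraries, strand-specific per the labels' protocols. The authors deposited raw whole-number read counts per Ensembl gene, 1 column per library. The submitters' processing notes name STAR, HTSeq, DESeq2 and hg19, with no roles. For the annotation release and for strand in the counting, a setting is not given in the sources used here. Groups and letters came from the titles. No column was left unused (0), and 0 rows lacked a gene.

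Counts of 16106 genes kept by filterByExpr (minimum count 10) were tested with the quasi-likelihood test of edgeR 4.0.16 in R 4.3.3, with TMM factors and group as the only term. P-values were Benjamini-Hochberg adjusted over all genes and called under 0.05. Standard errors are the log2 fold change divided by the root of F, and 95% intervals use the fit's total degrees of freedom. CPM use the TMM factors. Symbols, exon lengths, neighbours and overlaps came from tables of GENCODE release 29 and RefSeq on GRCh38, so only promoter windows carry coordinates. SOCS7, a listed inhibitor, is not analysed here.

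The rule named all members and EGFR-AS1, every called gene of a list, and the 3 smallest p where none was called. CNTFR, IL27RA, CLCF1, FOS, JUNB, MYC and BCL6 were named after their values were seen. Members and lists were chosen with earlier results of these data known. Alternatives were DESeq2 1.42.0, limma-voom (limma 3.58.1), RLE factors, library totals, no filter, 1 CPM in 2 libraries, each library left out, the letter as a block, and other lengths. Replicate libraries differed by more than sampling noise (chi-square per degree of freedom 12.1 with overexpression, 26.1 with vector). The edgeR step was tested on simulated data.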

Additional observations from a re-analysis of the deposited data

How the results depend on the processing

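SOCS3 was called in 9 of 11 alternatives, DESeq2 (adjusted p = 0.00521) and limma-voom (0.0120) among them, and not without either overexpression library. The number of members called ran from 0 to 2 over the fits with 1 library left out. Such fits leave 1 library in a group, which is assumed to vary like the others. Over the same fits the calls among all genes ran from 1271 to 3522, and those among the other pathway genes from 8 to 21. Libraries of the same letter deviated together with a correlation of 0.169 across 16106 genes. The titles read Set A and Set B in each group, and the labels do not say what a set shares. Whether the samples are paired is therefore not known, and the main fit did not pair them. With the letter as a replicate block, 2 members (SOCS3 and STAT3), 21 other pathway genes and 3467 of all genes were called. The adjusted p with the block was 0.0454 for STAT3, 0.0191 for STAT2, 5.32e-05 for FOS, 0.0397 for MYC, 0.0449 for CNTFR and 0.0409 for IL27RA, none of which passed in the same fit without it. The summed share of the 5 receptor genes depended on length. It was 45.3% with overexpression and 47.3% with vector by exon length, 40.8% and 42.5% by the longest transcript, and 41.2% and 44.2% by coding length. Of 286 alternative values for single genes named by the rule, 260 kept their side of the threshold, 19 lost the call, 7 gained it and 0 turned their direction among calls. The cause of these changes was not tested. FOS, named after its values were seen, is outside these 286 values, and its direction changed between fits. Scaling moved the median of all genes by at most 0.020.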

Other observations

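Some genes near the pathway differed between the library letters within both groups. FOS, an immediate early gene that growth factors and cytokines induce, was 5.65-fold higher in overexpression A than in overexpression B (90.4 and 16.0 CPM) and 4.97-fold higher in vector A than in vector B (49.7 and 10.0 CPM). Its difference between the groups was 0.82 on the log2 scale with an interval of -0.43 to 2.07 (edgeR adjusted p = 0.410). Within the letters FOS was higher with overexpression, by 0.86 for A and 0.68 for B on the log2 scale. Its group difference depended on which libraries were in the fit, at -0.91 without overexpression A, 1.59 without overexpression B, 2.41 without vector A and 0.10 without vector B. JUNB, another immediate early gene, was at 235 and 167 CPM in overexpression A and B and at 210 and 146 CPM in vector A and B. LIF was also higher in library A of each group, but its groups did not overlap. MYC was at 215 and 171 CPM in overexpression A and B and at 137 and 167 CPM in vector A and B, higher in A with overexpression and higher in B with vector. What the letters share was not tested.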
